A study of Oryctolagus cuniculus with 54 samples.

Results

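ENSOCUG00000017744 and ENSOCUG00000002424 are 2 of the 29587 rabbit gene identifiers counted in the lung, and both were at their highest in preterm pups 3 and 7 days after birth. In the 6 animals of those ages ENSOCUG00000017744 lay between 366.6 and 848.6 CPM (counts per 1e+06 counts of the library), against 0 to 11.8 CPM in the other 39 animals. ENSOCUG00000002424 lay between 49.0 and 2550 CPM in the same 6 animals, against 0.138 to 44.6 CPM in the others. The pair was chosen by these high preterm values, in the comparisons of preterm pups with F28 fetuses and with T31 and T35 term pups, so every value from those comparisons is given as a description, without a test. The sources used here give no gene symbol, product or sequence for either identifier, and both are therefore called by identifier only.

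The animals were New Zealand White rabbits, and RNA came from lung homogenate, which the labels call right lung and the study's methods call whole lung at the earliest 2 ages. Fetuses were taken by caesarean section and their lungs were collected at once on gestational day 20 (F20, n = 4), 23 (F23, n = 4), 25 (F25, n = 3), 27 (F27, n = 3), 28 (F28, n = 3) and 29 (F29, n = 3). Term pups were born naturally on day 31, stayed with their mothers in room air, and were collected on day 31 (T31, n = 6) or 4 days (T35, n = 3), 6 days (T37, n = 4) and 11 days (T42, n = 3) after birth. Preterm pups were delivered by caesarean section on day 28, kept in incubators at 21% oxygen, and fed a milk replacer by orogastric tube. Collection of 3 pups each followed 1 hour after delivery at P0, 3 days after it at P3 and 7 days after it at P7. The mode of delivery, the incubator and diet, and prematurity itself cannot be told apart in this design. P3 and T31 share a conceptional age of 31 days, as P7 and T35 share 35 days, but the P7 pups were 7 days past delivery and the T35 pups 4 days.

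During the ages sampled, the lung passes from branching airway tubes through the formation of vascularised canals and thin-walled sacs to the first alveoli. Birth adds air breathing, clearance of lung liquid and contact with microbes to this programme, and a preterm birth brings these forward into a lung that is still forming sacs. A homogenate mixes all lung cells, so fewer cells of a type and less RNA per cell cannot be told apart.

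The 54 libraries came from 45 animals and held 5771693 to 8073755 counts each, with a median of 7090332. At these depths 3 counts, taken as the floor of detection, were worth 0.372 to 0.520 CPM. The libraries were sequenced in 3 runs. Run 3 held all libraries of F20, F23, T37 and T42, run 1 held all of F27 and F29, run 2 held all of P0 and P3, and P7 was read in run 2 apart from animal 1, which was read in run 3. No run held both P3 and T31. 6 animals of F25, F28 and T35 were sequenced in more than 1 run, giving 15 libraries, and in the levels below their libraries were averaged so that each animal counted once. Identity of the tissue could not be checked against marker genes, since no identifier was paired with a symbol in the sources used here.

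In the fetal lung ENSOCUG00000017744 was at the edge of detection. At F20 the 4 fetuses had 0, 0.137, 0.684 and 1.09 CPM, and at F23 they had 0, 0.442, 0.465 and 0.596 CPM. At F25 the values were 0.168, 0.347 and 1.19 CPM, and at F27 they were 0, 0.307 and 0.80 CPM. These 4 ages overlapped throughout, and the highest count in any library of the 4 ages was 13. At F28 the 3 fetuses had 0.228, 0.347 and 1.85 CPM, and at F29 they had 0, 0.151 and 0.306 CPM. The F28 value of 1.85 CPM belonged to animal 2, whose 3 libraries held 2, 31 and 4 counts in runs 1, 2 and 3. Over all 20 fetuses the median was 0.327 CPM, and 4 of their 25 libraries held no count of this gene. For a count of 0 the exact 95% Poisson upper limit is 3.69 counts.

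In term pups ENSOCUG00000017744 was low but mostly above the floor. The 6 newborns of T31 ranged from 0 to 3.79 CPM, with 0.141, 0.619, 1.63 and 2.85 CPM between these ends. At T35 the 3 pups had 2.76, 3.77 and 4.20 CPM, and at T37 the 4 pups had 2.32, 3.43, 5.62 and 11.8 CPM. The T37 group held the highest value outside P3 and P7, 84 counts in animal 27. At T42 the 3 pups had 0.766, 0.895 and 1.03 CPM, all below every T35 and T37 pup. T42 did not overlap T35 in 27.2% of the 15733 genes above a low-count filter over all animals. It did not overlap T37 in 11.8% of the 15504 genes that passed the filter in fetal and term animals. The T31 mean was 1.51 ± 1.55 (SD, n = 6) CPM, and it was 3.58 ± 0.737 (SD, n = 3) for T35 and 5.80 ± 4.24 (SD, n = 4) for T37. T42 had a mean of 0.898 ± 0.133 (SD, n = 3) CPM.

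In preterm pups ENSOCUG00000017744 was low 1 hour after delivery and high at the later ages. The 3 P0 pups had 1.66, 3.10 and 3.75 CPM, from 12, 23 and 26 counts. The P3 pups had 366.6, 566.9 and 848.6 CPM, from 2728, 4036 and 6541 counts, and the P7 pups had 660.7, 727.1 and 822.5 CPM, from 4600, 5630 and 6398 counts. The lowest P3 pup was 31.0 times the highest animal outside P3 and P7. The means were 2.84 ± 1.07 (SD, n = 3) CPM at P0, 594.0 ± 242.2 (SD, n = 3) at P3 and 736.7 ± 81.3 (SD, n = 3) at P7. P3 and P7 overlapped, and the pups within an age stood close together, the highest being 2.31 times the lowest at P3 and 1.24 times at P7.

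ENSOCUG00000002424 was also near the floor in the early fetal lung. At F20 the 4 fetuses had 0.138, 0.684, 0.933 and 1.09 CPM, and at F23 they had 0.442, 1.09, 1.10 and 2.54 CPM. At F25 the values were 0.337, 0.480 and 2.77 CPM, and at F27 they were 0.153, 0.163 and 0.640 CPM, from 1, 1 and 4 counts. F27 was the group of lowest mean, 0.319 ± 0.278 (SD, n = 3) CPM. On the following days the gene was higher, with 4.36, 7.07 and 13.4 CPM at F28 and 2.42, 2.60 and 3.78 CPM at F29. No F28 or F29 fetus overlapped an F27 fetus. F28 and F27 did not overlap in 34.2% of 15733 filtered genes, and F29 and F27 in 20.3% of 15504 filtered genes. The F28 values moved with the run, since the run 1 libraries of these 3 fetuses had 1.82, 5.20 and 6.14 CPM and the run 2 libraries of 2 of them had 6.91 and 26.2 CPM, while F29 was read in run 1 alone.

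After term birth the mean of ENSOCUG00000002424 over all runs was higher at each later age, unlike the other gene at the last step. The 6 T31 newborns ranged from 0.921 to 6.25 CPM with 1.82, 3.94, 4.15 and 5.95 CPM between these ends. The T35 pups had 6.10, 9.02 and 22.5 CPM, and the T37 pups had 7.46, 11.5, 14.3 and 20.1 CPM. T35 and T37 overlapped. In run 3 alone, the only run of T37 and T42, the means were 5.38 CPM at T31, 15.1 at T35 and 13.3 at T37. At T42 the 3 pups had 37.3, 43.1 and 44.6 CPM, each above every T37 pup, where 11.8% of all genes had groups that did not overlap. The T42 mean was the highest outside the older preterm pups, 41.6 ± 3.86 (SD, n = 3) CPM. Where ENSOCUG00000017744 was at 0.766 to 1.03 CPM, in T42, ENSOCUG00000002424 was therefore at its term maximum.

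In preterm pups ENSOCUG00000002424 was high in most but not all of the older animals. The 3 P0 pups had 6.36, 6.64 and 8.90 CPM, inside the range of the F28 fetuses. The P3 pups had 49.0, 587.1 and 1495 CPM, from 349, 4369 and 11525 counts. The P7 pups had 172.2, 1654 and 2550 CPM, from 1199, 12811 and 19836 counts. P3 animal 1, at 49.0 CPM, was only 1.10 times T42 animal 50, at 44.6 CPM, while the other 5 pups lay well above every term and fetal animal. The means were 7.30 ± 1.39 (SD, n = 3) CPM at P0, 710.4 ± 730.9 (SD, n = 3) at P3 and 1459 ± 1201 (SD, n = 3) at P7.

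**Figure D1:**
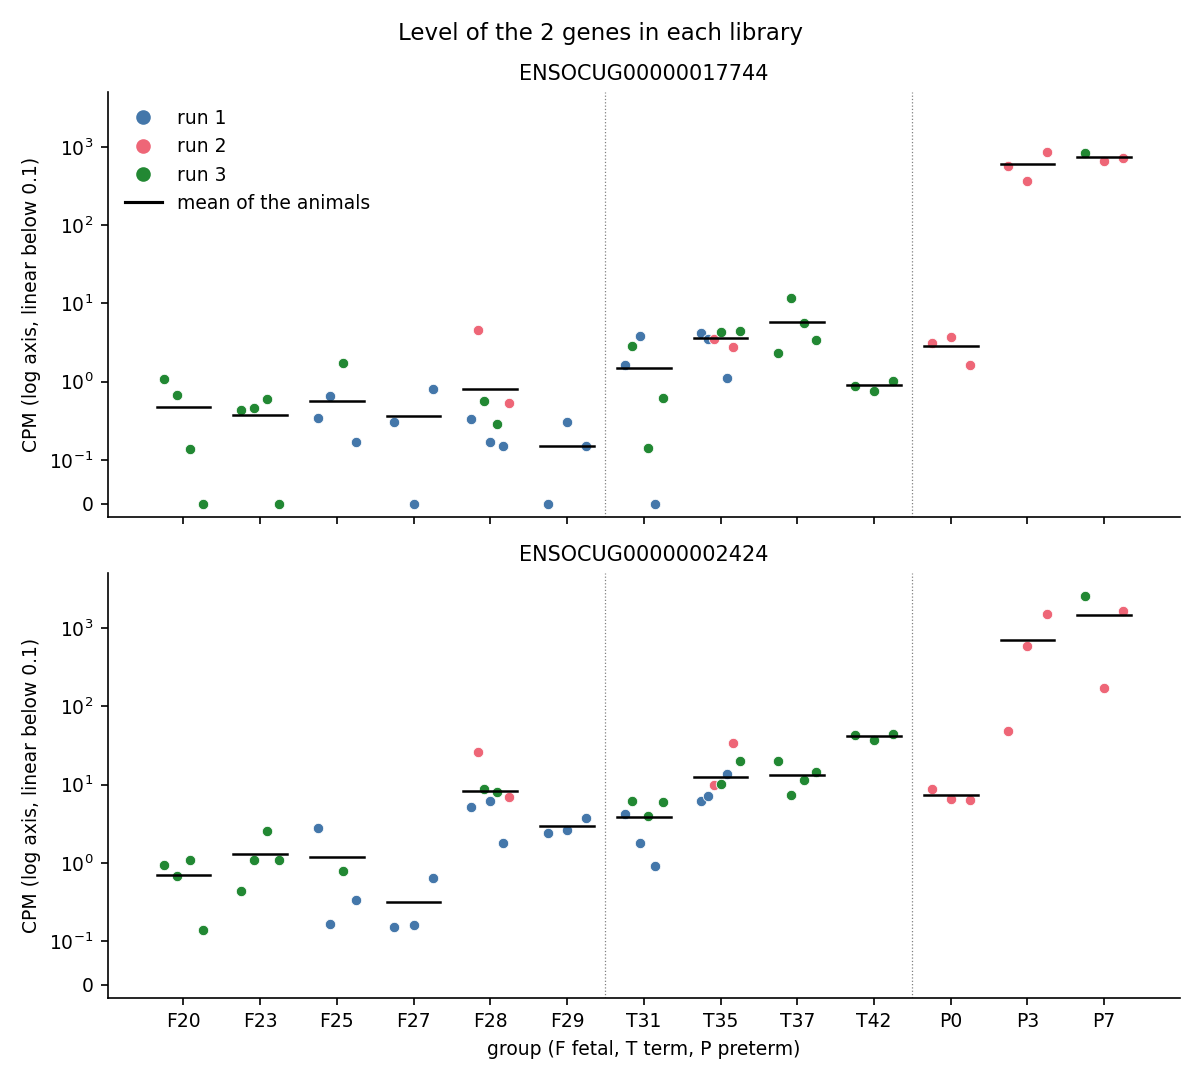
Level of each gene in all 54 libraries, with the group on the horizontal axis and CPM on a log axis that is linear below 0.1. Points are libraries coloured by sequencing run, and black lines are the means of the animals. ENSOCUG00000017744 is at 366.6 CPM or more in all P3 and P7 pups and at 11.8 CPM or less elsewhere, whereas the P3 and P7 points of ENSOCUG00000002424 reach down to 49.0 CPM, beside the T42 points of 37.3 to 44.6 CPM.

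Ordered by mean CPM from low to high, the groups for ENSOCUG00000017744 ran F29, F27, F23, F20, F25, F28, T42, T31, P0, T35, T37, P3 and P7. The ranges of neighbours in this order overlapped in 11 of 12 steps, the exception being T37 and P3, which did not overlap in 18.7% of all genes. For ENSOCUG00000002424 the order was F27, F20, F25, F23, F29, T31, P0, F28, T35, T37, T42, P3 and P7, with 3 steps of 12 at which neighbours did not overlap, namely T31 and P0, T37 and T42, and T42 and P3, which did not overlap in 7.28%, 11.8% and 27.0% of all genes. Both genes thus had P3 and P7 at the top. The place of T42 differed, being the seventh group from the bottom for ENSOCUG00000017744 and the third from the top for ENSOCUG00000002424. For ENSOCUG00000017744 the fetal groups overlapped near the floor, with 0 to 2 counts a library at F29, so nothing is read from their order.

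At P3 and P7 the relative spread between pups of one age was wider for ENSOCUG00000002424 than for ENSOCUG00000017744. It was also wider for ENSOCUG00000002424 at T35, but wider for ENSOCUG00000017744 at T31, T37, T42 and P0. For ENSOCUG00000017744 the coefficient of variation over animals was 40.8% at P3 and 11.0% at P7. For ENSOCUG00000002424 it was 103% at P3 and 82.3% at P7, and the highest pup was 30.5 times the lowest at P3 and 14.8 times at P7. Counting error was small beside this, with coefficients of 0.94% to 1.5% for the mean counts of these groups. The order of the pups differed in part. From low to high the P7 pups were animals 3, 4 and 1 for both genes, and P3 animal 3 was the highest P3 pup for both. ENSOCUG00000017744 was lowest in P3 animal 2 and highest in P3 animal 3, and ENSOCUG00000002424 was lowest in P3 animal 1 and highest in P7 animal 1. P7 animal 1 was the only one of these pups read in run 3. P3 animal 1 held 566.9 CPM of the first gene beside 49.0 CPM of the second, and P7 animal 3 held 660.7 CPM beside 172.2 CPM.

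**Figure D2:**
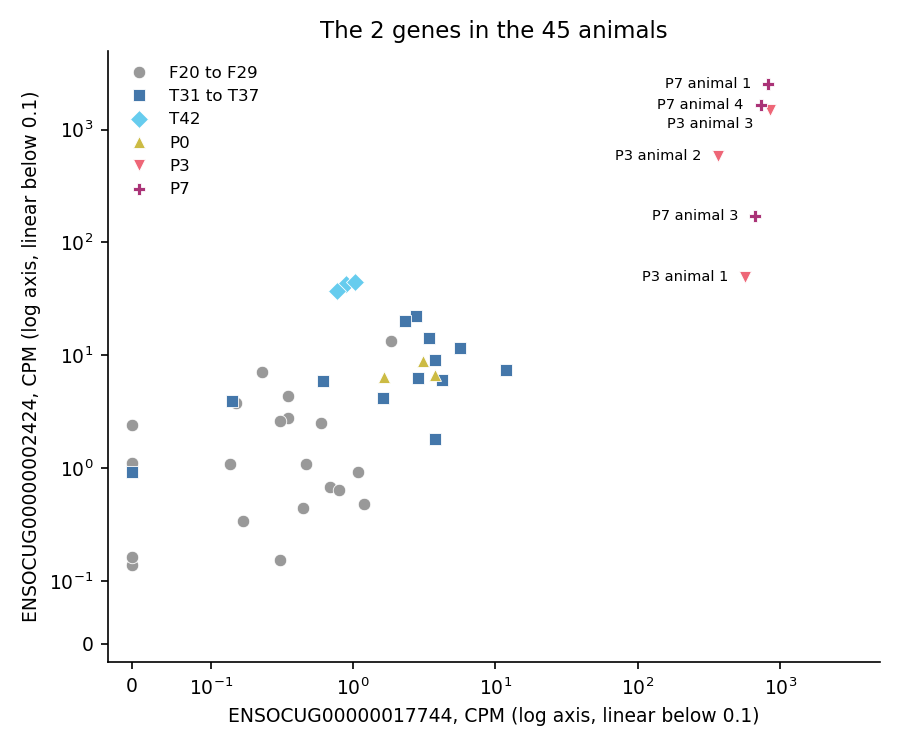
CPM of ENSOCUG00000002424 against CPM of ENSOCUG00000017744 in the 45 animals, on log axes that are linear below 0.1, with a symbol for each set of groups and the 6 P3 and P7 pups named. These 6 pups stand apart on the horizontal axis, at 366.6 to 848.6 CPM, and spread from 49.0 to 2550 CPM on the vertical axis, and the 3 T42 pups lie at the upper edge of the other animals.

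Both genes were then set against the groups of the same conceptional age. In P3 the mean of ENSOCUG00000017744 was 394 times that of T31, and the mean of ENSOCUG00000002424 was 185 times. These ratios ranked 5 and 6 among the 15637 genes with a count in T31. In P7 the means were 206 and 116 times those of T35, ranking 4 and 5 of the 15661 genes with a count in T35. All P3 pups lay above all T31 pups, and all P7 pups above all T35 pups, for both genes, which was so for 5.29% and 13.5% of all 15733 genes above a low-count filter. The choice of the pair used these contrasts, so nothing is read from the match.

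Model estimates with the run as a covariate were of the same order. For ENSOCUG00000017744 the log2 fold change was 8.66 ± 0.85 (SE) for P3 over T31 and 7.83 ± 0.78 for P7 over T35. For ENSOCUG00000002424 it was 7.16 ± 1.17 and 5.95 ± 1.10. Single animals moved these values. P3 over T31 was 7.91 without P7 animal 1 and 9.36 without T31 animal 4 for the first gene and 5.98 without P3 animal 3 for the second. P7 over T35 of the second was 5.24 without P7 animal 1 and 6.86 without T35 animal 11. P3 was read in run 2 and T31 in runs 1 and 3, so run and group there were separated only through the other groups of the fit. For P7 and T35 the ratio of means could be read inside runs. In run 2, with 2 pups each, it was 220.6 for ENSOCUG00000017744 and 42.0 for ENSOCUG00000002424, and in run 3, where P7 was animal 1 alone, it was 188 and 168.6.

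The older term pups were not used on the term side when the pair was chosen, and T37 is the term group nearest to P7 in days after birth. The high P7 values did choose the pair, so the ratios below are descriptions only. P7 had 127.1 times the mean of T37 for ENSOCUG00000017744 and 109.3 times for ENSOCUG00000002424, where T37 pups were 6 days old and P7 pups 7 days old. Within run 3, where P7 was again animal 1 alone, the ratios to T37 were 141.9 and 191. Against T42, the ratios of P7 were 820 and 35.0. The second gene was thus nearer to the preterm level in the oldest term pups than the first gene was.

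Between the preterm ages, the difference lay between 1 hour and 3 days after delivery. The P3 mean was 209 times the P0 mean for ENSOCUG00000017744 and 97.3 times for ENSOCUG00000002424, and P0 and P3 were all read in run 2. These ratios ranked 1 and 3 of the 15447 genes with a count in P0. High P3 values chose the pair, so nothing is read from these ranks. The log2 fold changes were 7.69 ± 0.75 (SE) and 6.59 ± 1.10, the latter being 5.42 without P3 animal 3. From P3 to P7 the ratios were 1.24 and 2.05, and 1.17 and 1.29 within run 2, which leaves out P7 animal 1. The log2 fold changes were 0.38 ± 0.58 (SE) and 0.85 ± 0.95, and the pups of both ages overlapped. With single animals left out they ran from 0.15 without P3 animal 2 to 0.75 without P3 animal 3 for ENSOCUG00000017744, and from 0.22 without P7 animal 4 to 2.02 without P3 animal 3 for ENSOCUG00000002424.

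At 1 hour after delivery the difference of the preterm pups from fetuses of the same gestational day depended on the libraries used. The P0 mean was 3.52 times the F28 mean for ENSOCUG00000017744 and 0.883 times for ENSOCUG00000002424. Within run 2, where F28 had 2 libraries, the ratios were 1.10 and 0.441. The fit over all runs, with the run as a covariate, gave log2 fold changes of 0.68 ± 0.84 (SE) and -0.75 ± 0.98. Fitted to the run 2 libraries alone, ENSOCUG00000017744 had 0.23 ± 0.66. F28 animal 2 gave the higher of the 2 run 2 libraries of the fetuses for both genes, and without this animal the estimates were 2.80 and 0.36. With the run 1 library of each repeated animal they were 4.45 and 1.04. The change over the 7 preterm days, less the change between F28 and T35, had fitted values of 7.15 ± 1.17 for ENSOCUG00000017744 and 6.71 ± 1.45 for ENSOCUG00000002424, and without F28 animal 2 they were 4.97 and 5.45.

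**Figure D3:**
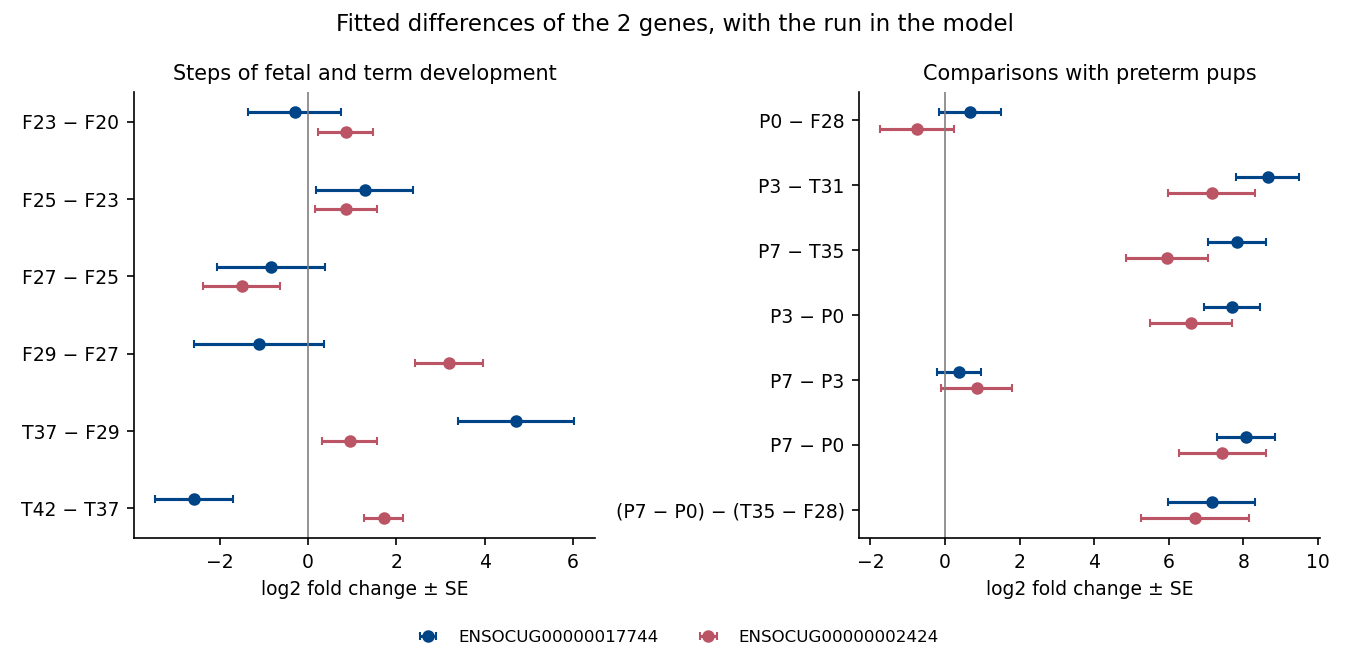
Fitted log2 fold changes of both genes with their standard errors, from edgeR models with the sequencing run as a covariate, for 6 steps of fetal and term development and for 7 comparisons with preterm pups. The comparisons with P3 or P7 on one side and T31, T35 or P0 on the other lie between 5.95 and 8.66, and among the developmental steps the points farthest from 0 are T37 over F29 for one gene and F29 over F27 for the other, at 4.70 and 3.18. The fetal steps of ENSOCUG00000017744 rest on 0 to 13 counts in a library.

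A set of developmental steps between groups that did not enter the choice of the pair was tested with edgeR over 36 fetal and term animals. The fit also held F28, T31 and T35, which did enter that choice, and all ages shared the spread. A call needed a change of more than 2-fold either way and an adjusted p no higher than 0.05, with adjustment over 15504 genes. ENSOCUG00000017744 was called in 1 of 6 steps, from F29 to T37, and ENSOCUG00000002424 in 1 of 6, from F27 to F29. Both calls were increases and both depended on the model and on single animals, as given below.

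From F29 to T37 ENSOCUG00000017744 had 3 counts in the 3 fetal libraries and 164 counts in the 4 term libraries. The ratio of pooled CPM was 37.3, with an exact 95% counting interval of 12.5 to 182.7. In edgeR's quasi-likelihood test the log2 fold change was 4.70 ± 1.32 (SE), with an adjusted p of 0.0320, and the pups lay at 2.32 to 11.8 CPM against 0 to 0.306 CPM in the fetuses. At this step 3.09% of genes were called. The call was lost in limma-voom, where the adjusted p was 0.0612, and on leaving out any of the 3 F29 fetuses, T37 animal 27 or 46, T31 animal 10 or T35 animal 1, with adjusted p of 0.0542 to 0.113 in edgeR. F29 was read in run 1 and T37 in run 3, so that the run term rests on F25, F28, T31 and T35. Of these, F28, T31 and T35 were used to choose the pair.

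ENSOCUG00000002424 had 57 counts in the F29 libraries and 380 in the T37 libraries, a ratio of pooled CPM of 4.55. The log2 fold change with the run in the model was 0.94 ± 0.62 (SE), with edgeR's adjusted p at 0.415, so the step was not called. A fit that left the run out gave 2.39 and a call, with an adjusted p of 0.0101 in edgeR.

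From F27 to F29 ENSOCUG00000002424 had 6 counts in 3 libraries and then 57 counts in 3 libraries, all of run 1. The ratio of pooled CPM was 9.29, with an exact 95% counting interval of 4.02 to 26.4. The log2 fold change was 3.18 ± 0.77 (SE) and edgeR's adjusted p was 0.0388, with the 3 fetuses of F29 above the 3 of F27. At this step 0.826% of genes were called. Left to the run 1 libraries alone, the log2 fold change was 3.17 with an adjusted p of 0.103 in edgeR. The call was also lost on leaving out F27 animal 1 or 7 or any F29 fetus, with adjusted p of 0.0731 to 0.223. ENSOCUG00000017744 had 7 counts at F27 and 3 at F29, too few for a fold change, and was not called.

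From T37 to T42 the genes went in opposite directions, without overlap of the groups for either. Both ages were read in run 3. ENSOCUG00000017744 had 164 counts in 4 libraries and then 20 in 3 libraries, with a log2 fold change of -2.59 ± 0.88 (SE), and ENSOCUG00000002424 had 380 and then 925 counts, with a log2 fold change of 1.71 ± 0.43 (SE). Neither passed in edgeR, with adjusted p of 0.385 and 0.189 and unadjusted p of 0.00614 and 0.000435. At this step 0.0387% of genes were called in edgeR, 6 in all, while 1297 had an unadjusted p under 0.05. ENSOCUG00000002424 was called in DESeq2, with a log2 fold change of 1.74 and an adjusted p of 0.0393, where 27 of 15504 genes were called.

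The earlier fetal steps gave no call for either gene. From F20 to F23, F23 to F25 and F25 to F27, edgeR's adjusted p ran from 0.534 to 0.938 for ENSOCUG00000017744 and from 0.505 to 0.653 for ENSOCUG00000002424. At these steps 1.66%, 3.05% and 0.0709% of genes were called. For ENSOCUG00000017744 the libraries of these ages held 0 to 13 counts, too few for a fold change to be given. For ENSOCUG00000002424 they held 1 to 17 counts, and the log2 fold changes were 0.85 ± 0.62 (SE), 0.86 ± 0.70 and -1.50 ± 0.87.

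The animals sequenced more than once showed how far these genes differed between runs of one animal. Of the 4 animals read in runs 1 and 2, all 4 had more of both genes in run 2, by 1.01 to 13.8 times for ENSOCUG00000017744 and 1.38 to 5.04 times for ENSOCUG00000002424. The 5 animals read in runs 1 and 3 all had more in run 3, by 1.26 to 3.98 times and 1.30 to 4.86 times. In edgeR with the animal as a block, ENSOCUG00000017744 differed between runs 2 and 1 with a log2 fold change of 1.54 ± 0.51 (SE, adjusted p 0.0146) and between runs 3 and 1 with 1.22 ± 0.48 (adjusted p 0.0331). Both were calls, beside 21.0% and 28.6% of all genes called in these comparisons.

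For ENSOCUG00000002424 the log2 fold change was 1.62 ± 0.23 (SE) between runs 2 and 1, with edgeR's adjusted p at 5.98e-06, which was a call. Between runs 3 and 1 it was 0.84 ± 0.23 (adjusted p 0.00302 in edgeR), under the fold limit. Runs 3 and 2 differed less, with log2 fold changes of -0.32 ± 0.49 for ENSOCUG00000017744 and -0.78 ± 0.23 for ENSOCUG00000002424 and no call for either, beside 2.90% of all genes. Without F28 animal 2 the run 2 difference of ENSOCUG00000017744 fell to 0.81 (adjusted p 0.127 in edgeR), and its run 3 difference lost the call without F25 animal 13, F28 animal 7 or T35 animal 11, at 1.13, 1.21 and 0.81 (adjusted p 0.0526 to 0.203 in edgeR). Between runs 2 and 1 the differences reached 2.47 for ENSOCUG00000017744 and 1.95 for ENSOCUG00000002424 without T35 animal 6. The part of the run in the preterm values was not tested beyond the within-run ratios given above.

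**Figure D4:**
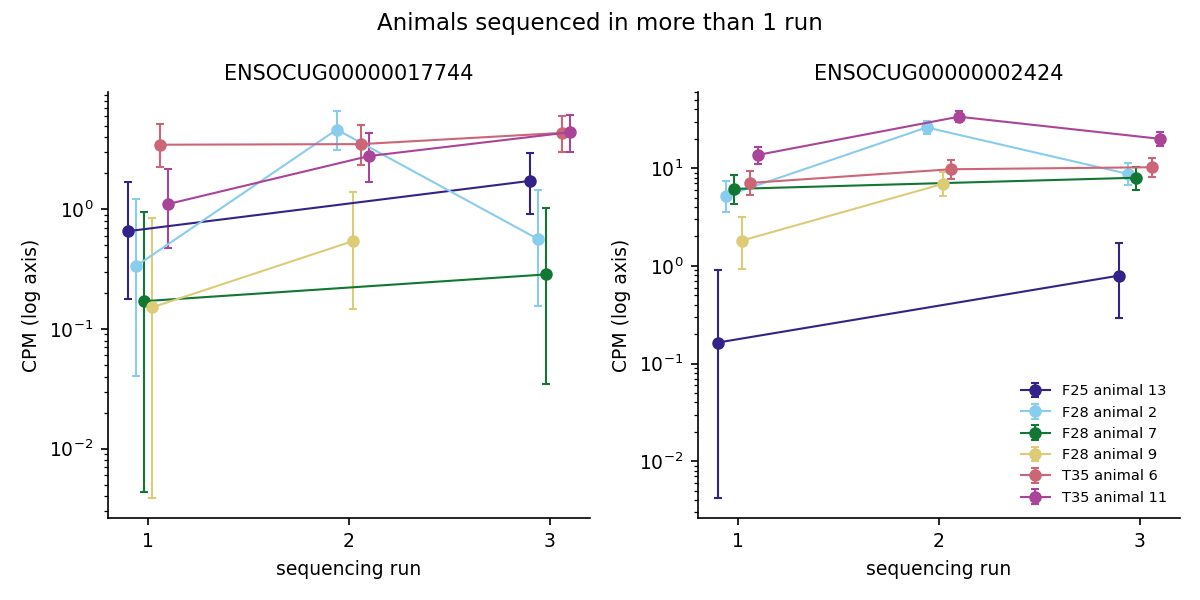
CPM of both genes, on a log axis, in the 6 animals sequenced in more than 1 run, with 1 line per animal across runs 1, 2 and 3 and exact 95% Poisson intervals that cover counting error only. Every animal is lowest in run 1, and the widest step is F28 animal 2 for ENSOCUG00000017744, from 0.335 CPM in run 1 to 4.64 CPM in run 2.

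The animals fell into separate clusters for the pair, with the 6 P3 and P7 pups apart from the other 39, so the likeness of the genes was read within each. On run-adjusted log2 CPM values, Pearson's correlation over the 39 animals was 0.531 and Spearman's was 0.578, and Pearson's r was 0.556 after leaving out the 2 animals farthest from the median of ENSOCUG00000017744. Among the 6 pups alone the values were 0.504 and 0.771. By Pearson's r over the 39 animals, the other gene ranked 310 of 15733 genes for ENSOCUG00000017744 and 2144 for ENSOCUG00000002424. Among the 6 pups it ranked 2385 and 2174, so within each cluster many genes were nearer. The points share libraries and depth, and these values are descriptions. The correlation over all 45 animals, 0.849, mostly sets the 6 pups that chose the pair against the rest and served only to rank other genes by likeness.

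Of the 15733 genes above the filter, ENSOCUG00000017620 was nearest to ENSOCUG00000017744, with a correlation of 0.875 over the 45 animals, and ENSOCUG00000002424 came next. ENSOCUG00000017620 lay at 0.421 to 10.2 CPM in the P3 and P7 pups and at 0 to 0.148 CPM in all others. It passed the low-count filter through those pups alone, so its likeness follows from the contrast that chose the pair. Nearest to ENSOCUG00000002424 was ENSOCUG00000021891, with a correlation of 0.906, at 0.983 to 24.4 CPM in the P3 and P7 pups and 0 to 3.36 CPM in the others. For ENSOCUG00000002424 the other gene of the pair ranked only 23. A correlation above 0.8 was reached by 7 genes with ENSOCUG00000017744 and by 103 with ENSOCUG00000002424, and the nearest gene changed with every other measure tried.

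All 6 P3 and P7 pups lay above every other animal in 24 genes, 0.153% of those above the filter. Among these, the gap between the lowest of the 6 pups and the highest other animal was widest for ENSOCUG00000017744, at 31.0-fold, with 2.84-fold for the gene that followed. ENSOCUG00000002424 ranked 10, at 1.10-fold, beside a median of 1.08-fold over the 24 genes. The separation of ENSOCUG00000002424 thus rested on a narrow margin between P3 animal 1 and the T42 pups, and that of ENSOCUG00000017744 did not. High values in these pups chose the pair, so its places among the 24 genes are a description and nothing is read from them. The 24 genes also include ENSOCUG00000017620, which passed the filter through those pups alone.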

How the data were processed

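The values deposited by the authors are whole-number read counts for each gene and library, from QuantSeq FWD 3′ libraries. Per the study's methods and processing notes they trimmed with BBduk, checked reads with FastQC, aligned to OryCun2.0 with STAR and counted with HTSeq on the Ensembl annotation. They also name a script that adds reads of 3′ UTRs missing from the annotation, but whether the table includes these reads is not stated, and tool versions are not given in the sources used here. Of 38822 entries in the RefSeq gene table used, 0 carried an Ensembl identifier, so symbols, sequences and the planned marker and pathway lists were not used. The members and lists were chosen with earlier results of these data known.

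CPM was the count divided by the library's total count, averaged over the libraries of an animal, and groups were summarised over animals, which came from different dams within an age per the study's methods. Tests used edgeR 4.0.16 (R 4.3.3) on the counts with quasi-likelihood fits, TMM scaling, genes of at least 0.5 CPM in at least 3 fitted libraries, the run as a covariate and Benjamini-Hochberg adjustment over all genes fitted. The developmental fit held 36 animals with 1 library each, run 3 before run 1, and all 10 ages shared the spread. The preterm fit held 21 animals, all preterm pups with F28, T31 and T35, each by its library of run 2, failing that of run 3 and then of run 1, and only its log2 fold changes and SE are used. The run fit held 15 libraries of 6 animals with the animal as a block. The SE of an edgeR value is its absolute log2 fold change divided by the square root of the quasi-likelihood F statistic. The authors used limma-voom on batch-adjusted values, which is an alternative here (limma 3.58.1), as is DESeq2 1.42.0. Correlations used log2 CPM with a prior count of 2, adjusted for run by removeBatchEffect with the group protected. Beside the pair, only the gene of highest correlation with each was named. Shares of all genes with groups that did not overlap were taken after the filter of 0.5 CPM. They are of 15504 genes for F29 with F27 and T42 with T37, and of 15733 genes otherwise. Intervals and the floor of 3 counts cover counting error only, since reads that carry no molecular identifier may be copies of one molecule. The scripts were tested on simulated counts.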

Additional observations from a re-analysis of the deposited data

How the results depend on the processing

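At under 20 counts a library, as in most fetal libraries, fold changes are imprecise. With DESeq2 the F25 to F27 step of ENSOCUG00000017744 had no adjusted p and was left out. The values below are log2 fold changes unless another unit is given, adjusted p in parentheses, and the cause of each change was not tested.

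Steps without a call that turned direction were F20 to F23 for ENSOCUG00000017744, at -0.31 and with limma-voom at 0.0093 or with all libraries of runs 1 and 3 at 0.028, its F23 to F25 step, at 1.28 and with the run 1 library first at -0.39, and F23 to F25 for ENSOCUG00000002424, at 0.86 and without the run at -0.14 or in run 3 alone at -0.55. The F27 to F29 call of ENSOCUG00000002424, at 3.18, was lost with limma-voom at 3.15 (0.0715), without the run at 3.18 (0.155), with all libraries at 3.16 (0.0649) and in run 1 alone at 3.17 (0.103). The F29 to T37 call of ENSOCUG00000017744, at 4.70, was lost with limma-voom at 4.15 (0.0612), and its run 2 call with limma-voom at 1.21 (0.0502). Calls gained for ENSOCUG00000002424 were F29 to T37 without the run at 2.39 (0.0101) and T37 to T42 with DESeq2 at 1.74 (0.0393) or all libraries at 1.79 (0.0120).

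The replicate number of the labels is an animal code. Deviations of samples of the same number had correlations of -0.082 to 0.073 over 18 developmental pairs and -0.51 to 0.20 over 18 preterm pairs. A limit of 0.1 was passed by 0 of the developmental and 3 of the preterm pairs. The correlations fitted for a replicate block were -0.031 and 0.028. With so few animals a group, these values cannot decide whether the numbers pair the samples, and the main fits left them unpaired. With the replicate block in limma-voom the F27 to F29 value of ENSOCUG00000002424 was 3.12 (0.0783) and the F29 to T37 value of ENSOCUG00000017744 was 4.23 (0.0538), neither a call. With the block the preterm interactions were 6.24 and 5.11, and P0 over F28 for ENSOCUG00000002424 was 0.11.

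Of the preterm values, which carry no test, P0 over F28 moved to 4.45 for ENSOCUG00000017744 and 1.04 for ENSOCUG00000002424 with the run 1 library first, and to 0.059 for the latter with limma-voom. P7 over T35 of ENSOCUG00000017744 moved to 8.53 with the run 1 library first. The interaction moved to 6.20 and 5.18 with limma-voom, and to 4.08 for ENSOCUG00000017744 with the run 1 library first. The F28 means were 1.82 and 13.7 CPM with the run 2 library first, and the T42 mean of ENSOCUG00000002424 was 45.9 CPM with TMM-scaled sizes. The correlation of the pair was 0.849, and 0.725 by rank, 0.914 over the 21 animals of the preterm fit, 0.531 without P3 and P7, 0.504 in P3 and P7 alone and 0.358 over deviations from group means of the 9 preterm pups. The last 3 were chosen after seeing the data, as were the single-run fits and the run difference with animals left out.

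With each animal left out in turn, ENSOCUG00000017744 ran from -0.71 to 0.38 for F20 to F23, -0.61 to 1.63 for F23 to F25, -1.96 to 0.58 for F25 to F27, -1.96 to 0.0076 for F27 to F29 and 4.07 to 5.56 for F29 to T37, where 29 of 36 fits kept the call. ENSOCUG00000002424 ran from -0.49 to 1.76 for F23 to F25, -2.40 to 0.12 for F25 to F27 and 2.87 to 4.09 for F27 to F29, where 31 of 36 fits kept the call. Between runs 2 and 1, 3 and 1, and 3 and 2, ENSOCUG00000017744 ran from 0.81 to 2.47, 0.81 to 1.68 and -0.91 to 0.49, and ENSOCUG00000002424 between runs 3 and 2 from -1.10 to -0.47, a call without T35 animal 6. P0 over F28 ran from 0.20 to 2.80 and -1.09 to 0.36, and the interaction from 4.97 to 7.64 and 5.45 to 7.63, for ENSOCUG00000017744 and ENSOCUG00000002424. Of the other alternatives, 90 of 105 values kept their call and direction in the developmental steps, and 114 of 124 preterm values moved by less than the SD of log2 CPM between animals of the groups compared, which is not the SE printed beside them. Over the 8 to 9 alternatives each, P3 over T31 ran from 8.27 to 9.70 for ENSOCUG00000017744 and from 7.00 to 8.42 for ENSOCUG00000002424, and P7 over T35 from 7.62 to 8.53 and from 5.22 to 6.74. With single animals left out, P3 over T31 ran from 7.91 (P7 animal 1) to 9.36 (T31 animal 4) and from 5.98 to 7.71, and P7 over T35 from 7.43 to 8.09 and from 5.24 to 6.86.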
